A study of Mus musculus with 13 samples.

Results

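The genes examined here were the fibroblast growth factor (FGF) receptors, FGF ligands and FGF carrier of a fixed family list, followed in mammary tumors and in wild-type mammary glands. The list held 10 gene symbols, which were the receptor genes Fgfr1, Fgfr2, Fgfr3, Fgfr4 and Fgfrl1, the ligand genes Fgf1, Fgf2, Fgf7 and Fgf10, and the carrier gene Fgfbp1. Of these, 9 were among the 15213 genes listed, and Fgf2 was not analysed here. The members were chosen by family name and by no measured value, with earlier results of these data known.

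The tumors were 10 mammary tumors from 6 females of the labelled genotype MtTA Teto-TSG101wt. These females carried a tetracycline-controlled transactivator (tTA) driven by the MMTV promoter together with a TetO-Tsg101 transgene that also encodes luciferase. In this Tet-Off design the transgene is active without doxycycline, and the promoter directs it to the epithelium of the gland and not to the stroma. According to the methods, the tumors studied in molecular detail came from 1 founder line and all transgenes were kept on the FVB/N background. The comparison group was mammary gland tissue from 3 wild-type FVB females, which carried neither transgene. Neither the age of the mice nor the reproductive stage of the glands was given in the sources used here. The comparison asked how the expression of the FGF receptors and their ligands differed between the tumors and the normal tissue. A single tumor was taken from each of 3 of the females, 2 tumors from each of 2 others and 3 from 1 female, and tumors of 1 female are not independent samples.

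FGFs are secreted growth factors that bind to receptor tyrosine kinases together with heparan sulfate on the cell surface. Binding pairs the receptors, switches on their kinase domains, and passes the signal through the adaptor Frs2 to the Ras-MAP kinase and phosphoinositide kinase pathways. In the mammary gland, Fgf7 and Fgf10 are made by the stroma, including fat pad and fibroblasts, and act on the epithelial splice form of Fgfr2. This exchange is needed for the mammary bud and for the growth of ducts.

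Libraries held between 6176269 and 16835397 assigned reads in the tumors and between 11672487 and 23889042 in the glands. Values are given as normalized cpm, the reads of a gene divided by the size of its library after the authors had scaled each library. A count of 3 reads, the limit that a count of 0 allows, was worth 0.141 to 0.683 normalized cpm in the tumors and 0.128 to 0.366 in the glands. Tsg101, the gene of the transgene, was at 66.5 ± 15.5 normalized cpm in the tumors (SD, n = 10) and at 53.2 ± 7.68 in the glands (SD, n = 3), with 6 of the 10 tumors above all glands, and it did not pass the test (log2 fold change 0.30 ± 0.20 SE, adjusted p = 0.279, limma). The tissues differed in composition. Of the marker lists, the 10 adipocyte genes were all called lower in the tumors, 5 of 10 fibroblast genes were lower and 1 higher, 7 of 10 basal epithelial genes were higher and 1 lower, and 8 of 10 squamous genes were higher. Of the endothelial and of the lymphocyte genes, 9 of 10 each were lower, with median log2 fold changes of -2.17 and -2.90, and gland 2 stood apart with a lymphocyte sum of 31.3 normalized cpm against 610 and 533 in glands 1 and 3. The sum of the 10 luminal epithelial markers overlapped, at 1963 to 2878 normalized cpm in the tumors and 1282 to 2860 in the glands. The sum of 8 milk genes was 165145 to 305301 in the glands and 1393 to 76662 in the tumors. In such bulk samples, fewer cells of a type and less RNA per cell cannot be told apart.

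The receptors Fgfr1, Fgfr2 and Fgfr3, the ligand Fgf1 and the carrier Fgfbp1 were significantly upregulated in the tumors, and the ligand Fgf10 was significantly downregulated. The receptors Fgfr4 and Fgfrl1 and the ligand Fgf7 did not pass the test. A gene was called when its adjusted p (limma, Benjamini-Hochberg over all 15213 genes) was below 0.05 and its change exceeded 2-fold. By this rule 20.6% of all genes were called in either direction. Of the members, 5 of 9 were called higher, where 10.5% of all genes were called higher, and 1 of 9 was called lower, against 10.1% of all genes. The median log2 fold change was 1.04 over the 9 members and 0.01 over all genes. All 10 tumors lay above all 3 glands for 4 members, which held for 11.4% of all genes, and below them for 1 member, which held for 10.3%. The low-expression filter of the methods kept 6 of the 9 members and left out Fgfr4, Fgf7 and Fgf10. The plot of the members by library shows the single values.

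**Figure D1:**
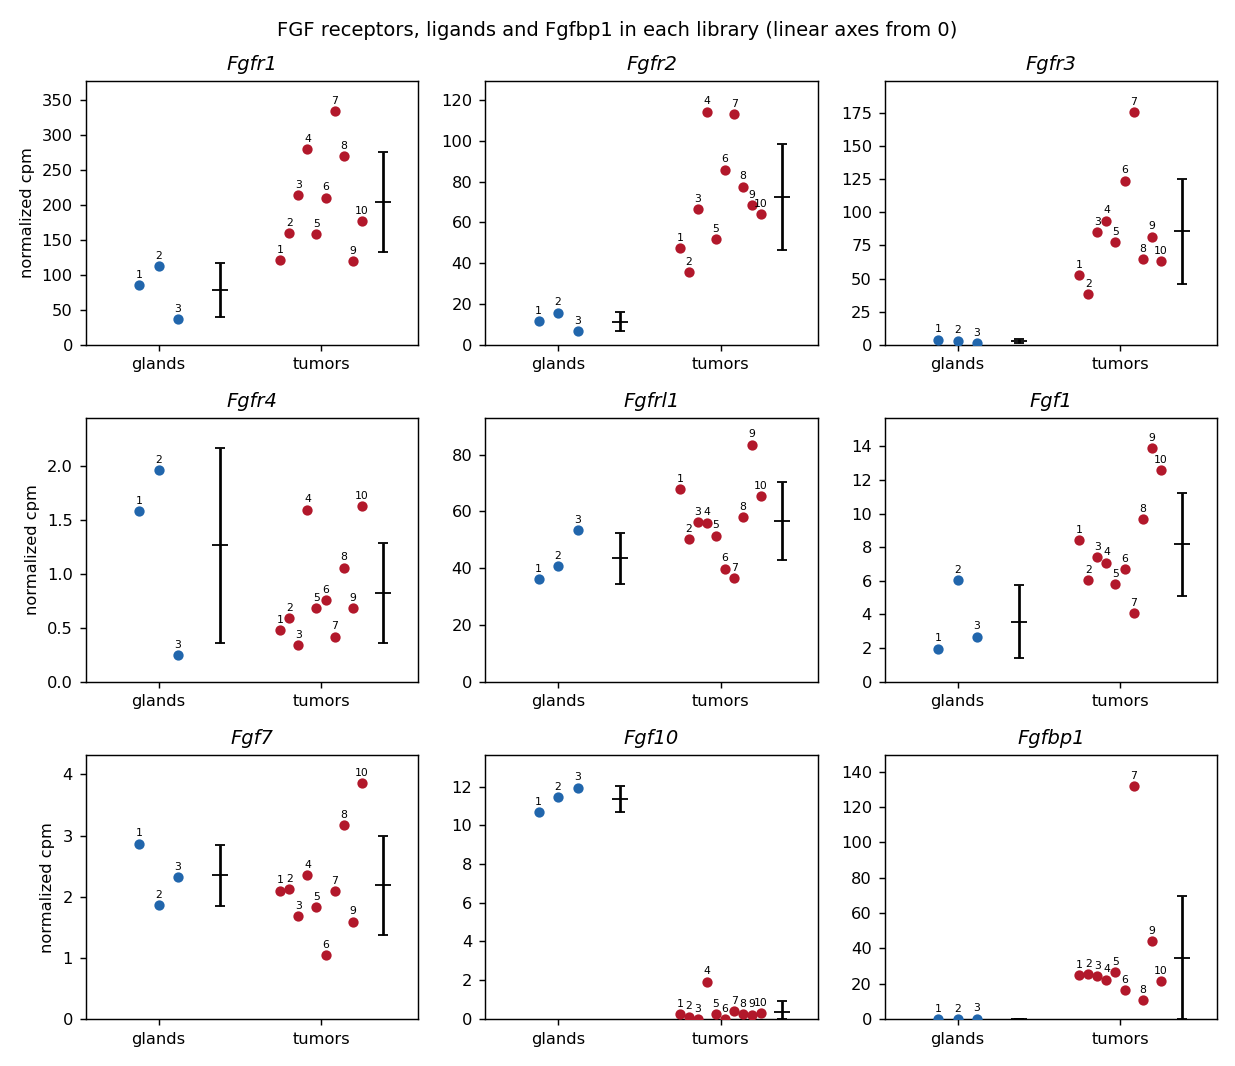
Normalized cpm (vertical axes, linear from 0) of the 9 listed members in the 3 glands (blue) and 10 tumors (red), with the replicate number above each point; black marks are means with SD, drawn down to 0 at most. All tumors lie above all glands for Fgfr1, Fgfr2, Fgfr3 and Fgfbp1 and below them for Fgf10, while tumor 7 stands apart for Fgfbp1 and tumor 4 for Fgf10.

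Fgfr1 (Entrez 14182, GRCm38.p6 chr8:25518759-25575718, plus strand) encodes the receptor that is most widely found in stroma and that is also expressed in basal epithelium. It was at 85.3, 113 and 36.5 normalized cpm in glands 1, 2 and 3, and at 119 (lowest), 193 (median) and 335 (highest) in the tumors. The groups did not overlap, but the lowest tumors, 9 and 1, were close to gland 2. The means were 205 ± 71.7 in the tumors (SD, n = 10) and 78.2 ± 38.7 in the glands (SD, n = 3), with a log2 fold change of 1.44 ± 0.35 (SE, adjusted p = 0.0056). Gland 3 was the lowest library, and without it the log2 fold change was 0.97 with an adjusted p of 0.0424, so that Fgfr1 no longer passed the limit of 2-fold. Gland 3 was also the library with the highest adipocyte marker sum, 11237 normalized cpm against 3714 and 4131 in glands 1 and 2, and the lowest luminal epithelial sum. It had the fewest reads of the glands, and the ribosomal RNA gene Rn45s took 4.35% of its reads, against 0.324% and 0.296% in glands 1 and 2. The part of these differences in the Fgfr1 result was not tested.

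Fgfr2 (Entrez 14183, chr7:130162451-130266808, minus strand) encodes the epithelial receptor of Fgf7 and Fgf10 in its IIIb splice form. Gene-level counts do not separate the splice forms. Its values were 11.6, 15.7 and 6.70 normalized cpm in glands 1, 2 and 3, and 35.7, 67.5 and 114 as the lowest, median and highest tumor. The groups were clearly apart, and the lowest tumor was tumor 2. The mean was 72.5 ± 26.2 in the tumors and 11.3 ± 4.53 in the glands, which gave a ratio of means of 6.39 and a log2 fold change of 2.56 ± 0.32 (SE, adjusted p = 3.04e-05).

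Fgfr3 (Entrez 14184, chr5:33721724-33737068, plus strand), a receptor tyrosine kinase best known for its role in cartilage and bone and also found in epidermis, had the largest change among the receptors. The glands held 3.73, 3.10 and 1.34 normalized cpm, which were 87, 60 and 11 reads. The lowest, median and highest tumors were at 38.0, 79.7 and 176, so that the lowest tumor was still well above the highest gland. The mean rose from 2.72 ± 1.24 to 85.7 ± 39.5 normalized cpm, a ratio of means of 31.5, with a log2 fold change of 4.48 ± 0.36 (SE, adjusted p = 4.58e-07). Of its exon bases, 998 lie opposite the gene G630022F23Rik on the other strand, and 9.96% of its 75-base stretches are shared with that gene. Whether the counting used strand is not stated in the sources used here, so that reads in that stretch could come from either gene. Of the 75-base stretches of Fgfr2, 2.19% were shared with Ctbp2, which lies on the same strand. For Fgfr1, 0.867% were shared with Gm16159 on the other strand. No 75-base stretch was shared between members.

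The 4 windows below are shown because they end at a RefSeq start site of the members with the largest changes in either direction. Each is 250 bases long, 5′ to 3′ on the strand of the gene, from the RefSeq table of GRCm38.p6, at chr5:33721474-33721723 (plus strand, the first of the Fgfr3 starts), chr7:130266809-130267058 (minus strand, Fgfr2), chr5:43981800-43982049 (minus strand, Fgfbp1) and chr13:118714449-118714698 (plus strand, Fgf10). The Fgfbp1 window overlaps the gene span given further on by 29 bases, because that span reaches upstream of the start site used for the window. The table gave 2 starts for Fgfr3 and 1 for each of the others. Capitals mark matches to the motifs CCAAT and GGGCGG on either strand.
Fgfr3: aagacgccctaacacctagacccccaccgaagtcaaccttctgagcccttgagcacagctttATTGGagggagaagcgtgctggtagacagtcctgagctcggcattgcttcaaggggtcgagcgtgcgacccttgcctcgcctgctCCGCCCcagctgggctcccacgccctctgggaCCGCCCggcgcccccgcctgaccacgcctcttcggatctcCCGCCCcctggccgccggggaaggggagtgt
Fgfr2: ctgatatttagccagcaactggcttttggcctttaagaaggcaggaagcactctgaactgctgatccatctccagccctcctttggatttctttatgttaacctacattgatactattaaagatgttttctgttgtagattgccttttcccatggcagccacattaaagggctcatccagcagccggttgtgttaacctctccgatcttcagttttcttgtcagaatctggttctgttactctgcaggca
Fgfbp1: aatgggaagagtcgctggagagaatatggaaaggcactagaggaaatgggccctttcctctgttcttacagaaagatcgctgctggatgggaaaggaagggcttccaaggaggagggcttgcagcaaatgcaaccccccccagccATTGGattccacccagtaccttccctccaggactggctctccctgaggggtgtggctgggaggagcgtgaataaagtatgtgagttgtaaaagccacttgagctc
Fgf10: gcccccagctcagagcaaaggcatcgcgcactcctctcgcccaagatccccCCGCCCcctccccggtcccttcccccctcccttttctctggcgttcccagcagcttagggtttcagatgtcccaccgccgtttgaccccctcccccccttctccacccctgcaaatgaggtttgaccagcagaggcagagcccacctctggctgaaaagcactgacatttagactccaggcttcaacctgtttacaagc
The Fgfr3 window held 1 match to CCAAT and 3 matches to GGGCGG, and it had a GC content of 66.8% with 19 CpG dinucleotides. The Fgfr2 window had none of these motifs, a GC content of 44.0% and 2 CpG dinucleotides. The Fgfbp1 window held 1 CCAAT match and 3 CpG dinucleotides, and the Fgf10 window held 1 GGGCGG match and 8 CpG dinucleotides. CCAAT was found in 33.8% and GGGCGG in 32.7% of all 32851 windows of the same length, whose median was 6 CpG dinucleotides. Further motifs searched on both strands gave no match in these 4 windows. They were the TATA box (TATAAA), found in 12.4% of all windows, the AP-1 motif (TGANTCA), found in 6.75%, and the TCF motif (CTTTGAT), found in 3.21%. A match describes letters and is not a measured binding site.

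Basal epithelial markers were examined beside the receptors. The list was mixed, since keratins such as Krt5 (561 against 79.4 normalized cpm) and Col17a1 (339 against 25.2) were higher in the tumors while Itga6 was lower (127 ± 50.4 against 279 ± 97.9, adjusted p = 0.016) and Dst, at 66.4 against 157, did not pass the test. The summed level of the 10 basal markers was 1416 to 5334 normalized cpm in the tumors and 460 to 1136 in the glands, and no basal marker was at 0 in any library. The 4 tumors with the highest Fgfr3 level (7, 6, 4 and 3) were also the 4 with the highest basal sum. Relative to the mean log2 level of these markers in the same library, Fgfr3 was still higher in the tumors by 2.71 and Fgfr2 by 0.79 on the log2(normalized cpm + 1) scale, with all 10 tumors above all glands for both. Fgfr1 had the opposite sign on this scale, at -0.33, with 9 of 10 tumors below all glands. This scaling was chosen after the data were seen, and the part of the basal cells in the receptor results was otherwise not tested.

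The remaining receptor genes showed no change that passed the test. Fgfr4 (Entrez 14186, chr13:55152818-55168759, plus strand), a receptor tyrosine kinase known from liver, was barely detected, with 1.58, 1.96 and 0.244 normalized cpm in the glands and 0.337, 0.683 and 1.63 as the lowest, median and highest tumor. The lowest gland rested on 2 reads and the lowest tumor on 3 reads, and the groups overlapped. The lowest gland was gland 3, while glands 1 and 2 held 37 and 38 reads. The log2 fold change of Fgfr4 was -0.25 ± 0.28 (SE, adjusted p = 0.524, limma). Without gland 3 it was -0.64 (adjusted p = 0.081, limma), and no difference was called in either fit. Fgfrl1 (Entrez 116701, chr5:108694229-108706950, plus strand) encodes a receptor-like protein that binds FGFs but lacks the tyrosine kinase domain. It was at 36.3, 40.6 and 53.4 normalized cpm in the glands and at 36.6, 56.2 and 83.5 as the lowest, median and highest tumor, with 6 of 10 tumors above all glands. Its mean was 56.6 ± 13.7 in the tumors and 43.4 ± 8.90 in the glands, with a log2 fold change of 0.36 ± 0.22 (SE, adjusted p = 0.238, limma). The change was -0.06 when libraries were scaled to the luminal epithelial markers. With library totals alone it was 0.68 (adjusted p = 0.0344, limma), which stays below the limit of 2-fold.

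The makeup of the kinase receptor transcripts differed between the groups. Levels of different genes were compared per kilobase of exon, and Fgfr1 to Fgfr4 were summed in each library. The sum was 39.9 ± 14.1 normalized cpm per kb in the tumors (range 24.4 to 69.5) and 9.76 ± 4.75 in the glands (range 4.60 to 13.9). Fgfr1 made up 80.9% ± 0.909 of this sum in the glands and 52.2% ± 7.25 in the tumors. The share of Fgfr3 was 4.01% ± 0.875 in the glands and 29.6% ± 6.29 in the tumors, and the share of Fgfr2 was 11.8% ± 2.00 and 17.6% ± 2.49. Fgfr4 held 3.21% ± 1.49 in the glands and 0.622% ± 0.336 in the tumors.

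**Figure D2:**
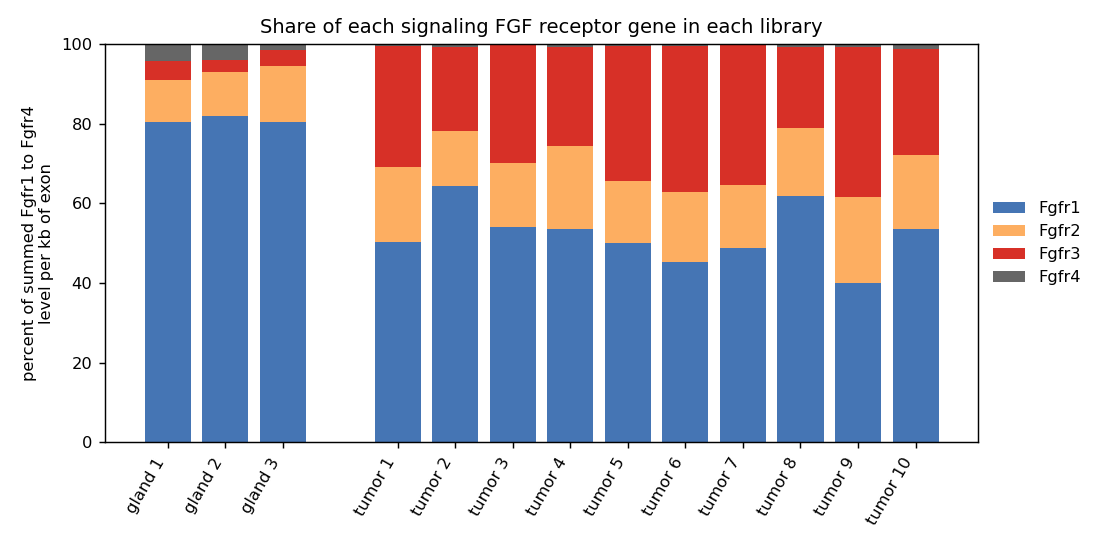
Percent of the summed Fgfr1 to Fgfr4 level per kb of exon (vertical axis) taken by each receptor gene in each of the 3 glands and 10 tumors. Fgfr1 holds 80.3% to 82.0% in the glands and 39.9% to 64.5% in the tumors, where Fgfr3 holds 20.4% to 37.6%.

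The ratio of receptor genes within a library, taken here with no value added, does not depend on how libraries are scaled to each other. The log2 ratio of Fgfr3 to Fgfr1 was higher in the tumors by 3.52, that of Fgfr3 to Fgfr2 by 2.30 and that of Fgfr2 to Fgfr1 by 1.22, each with all 10 tumors above all 3 glands. In exact two-sided permutation tests over libraries (286 permutations), each of these had p = 0.0035, the smallest p that the design can give, and an adjusted p of 0.0047 over the 4 gene pairs compared. The log2 ratio of Fgfr1 to Fgfrl1, the receptor without a kinase, differed by 1.09 (exact permutation p = 0.077, adjusted p = 0.077). The pairs were chosen after the levels were known, and the test takes the tumors of a mouse as separate samples.

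Among the ligands, Fgf10 was nearly lost from the tumors. Fgf10 (Entrez 14165, chr13:118714699-118792573, plus strand) is a stromal ligand of the epithelial form of Fgfr2. The glands were close together at 10.7, 11.5 and 11.9 normalized cpm, which were 249, 222 and 98 reads. The tumors were at 0 (lowest), 0.232 (median) and 1.92 (highest), and 2 tumors had no read while 7 had 3 reads or fewer, including those at 0. All tumors were far below all glands. Over all libraries of a group, 57 tumor reads stood against 569 gland reads, which corresponds to a level 20.4-fold higher in the glands (95% exact interval 15.5 to 27.2, counting error only). The log2 fold change was -3.25 ± 0.27 (SE, adjusted p = 5.43e-07) on the log2(normalized cpm + 1) scale, which understates changes of low genes.

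Tumor 4 alone held 41 of the 57 tumor reads of Fgf10, and the other tumors held at most 4 reads each. The mean of the glands was 30.8-fold above that of the tumors, and 57.9-fold above it without tumor 4. Tumor 4 also had the highest adipocyte marker sum of the tumors, 441 normalized cpm against 42.3 to 248 in the others, and the highest skeletal muscle sum, 2809 against 5.43 to 447. The adipocyte sum in the glands was 3714 to 11237, and 2 adipocyte markers were at 0 in at least 1 tumor. The fibroblast sum was 465 to 1247 in the tumors and 4015 to 4559 in the glands. Relative to the mean log2 level of the fibroblast markers of the same library, Fgf10 differed by -1.78 on the log2(normalized cpm + 1) scale, with all 10 tumors below all glands. Relative to the adipocyte markers it differed by 2.24, with all 10 tumors above all glands. Most tumors are at the floor of Fgf10 and the added 1 limits its fall, so no direction can be read from that value. Both scalings were chosen after the data were seen. The adipocyte markers were 12.2-fold to 95.7-fold higher in the glands by ratio of means, with a median of 55.3-fold, and the fold of Fgf10 lay within that range. The part of either cell type in the lower level of Fgf10 was not tested further.

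Fgf7 (Entrez 14178, chr2:126034658-126091185, plus strand), the other stromal ligand of the epithelial Fgfr2 form, did not pass the test. It was at 2.87, 1.86 and 2.32 normalized cpm in the glands and at 1.04, 2.10 and 3.85 as the lowest, median and highest tumor, and the groups overlapped, with 2 tumors above and 4 below all glands. Its log2 fold change was -0.10 ± 0.23 (SE, adjusted p = 0.778). Relative to the fibroblast markers, Fgf7 was higher in the tumors by 1.37 on the log2(normalized cpm + 1) scale, with all 10 tumors above all glands. The level of Fgf7 itself was nearly unchanged, so this value comes from the lower markers, of which 5 of 10 were called lower and 1 higher. Relative to the adipocyte markers the value was 5.38. Both scalings were chosen after the data were seen. Of the reads of Fgf10 and Fgf7 together, Fgf10 made up 78.8%, 86.0% and 83.8% in glands 1, 2 and 3, and 0% (lowest), 8.70% (median) and 45.1% (highest, tumor 4) in the tumors. Without tumor 4 the highest tumor was at 16.7%. These shares are given with no test, and in most tumors they rest on few reads.

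Fgf1 (Entrez 14164, chr18:38838672-38929470, minus strand) encodes a ligand that can bind all FGF receptors. Its values were 1.97, 6.04 and 2.68 normalized cpm in glands 1, 2 and 3, and 4.09, 7.25 and 13.9 as the lowest, median and highest tumor. The groups overlapped because of gland 2, and 7 of 10 tumors were above all glands. The mean was 8.17 ± 3.08 in the tumors and 3.56 ± 2.17 in the glands, with a log2 fold change of 1.04 ± 0.32 (SE, adjusted p = 0.0217), just past the limit. The call was lost in 9 of 28 alternatives, in which the log2 fold change was 0.68 to 0.97. It was lost when the reads of each mouse were summed (0.92, adjusted p = 0.0613), with tumors 8, 9 and 10 of 1 mouse left out (0.80, adjusted p = 0.0546), without tumor 9 (0.95) or tumor 10 (0.97), and without gland 1 (0.78, adjusted p = 0.156) or gland 3 (0.93, adjusted p = 0.0698). Tumors 9, 10 and 8, all from 1 mouse, had the 3 highest Fgf1 levels.

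The carrier Fgfbp1 had the largest fitted change of the members with 1 added before the logarithm, whereas with 4 added its log2 fold change was 2.96 and that of Fgfr3 was 3.64. Fgfbp1 (Entrez 14181, chr5:43978858-43981828, minus strand) encodes a secreted protein that binds FGFs stored on heparan sulfate in the matrix and releases them to their receptors, and it is known from squamous epithelia. Glands 1 and 2 had no read of it and gland 3 had 1 read, or 0.122 normalized cpm. The tumors were at 10.8 (lowest), 24.4 (median) and 132 (highest), and all were above all glands. Over all libraries, 3409 tumor reads stood against 1 gland read, which corresponds to a ratio of 1671 with a 95% exact interval of 300 to 66036 that covers counting error only. The log2 fold change was 4.76 ± 0.50 (SE, adjusted p = 5.12e-06). Because the glands are at the floor, the fitted fold change is set by the value added before the logarithm and ranged from 2.96 to 10.57 over the alternatives.

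Tumor 7 was highest for Fgfbp1 at 132 normalized cpm, while the other tumors were at 10.8 to 43.9 with a mean of 24.0 ± 9.0 (SD). Tumor 7 also had the highest sums of the squamous markers (2286 normalized cpm, against 332 to 1147 in the other tumors), of the basal markers (5334) and of the hair follicle markers (3558). The 10 squamous markers summed to 17.0 to 50.2 in the glands, where 4 of them were at 0 in every library. Fgfbp1 is present in the tumors without tumor 7 as well, since all 10 tumors were above all glands, and the part of the squamous cells in its level was not tested.

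The 5 genes whose log2 levels followed Fgfbp1 most closely over the 10 tumors, out of 11794 genes past the filter of the methods, were Smad7 (Pearson r = 0.960, Spearman rho = 0.891), Smim13 (r = 0.954, rho = 0.830), Lgals7 (r = 0.949, rho = 0.855), Fabp5 (r = 0.947, rho = 0.927) and Dcbld1 (r = 0.943, rho = 0.636). They are described with no test, and the points share libraries of differing depth and include tumor 7. Lgals7, a galectin of stratified epithelia, was at 151 to 626 normalized cpm in the tumors and was called higher in them (log2 fold change 5.41, adjusted p = 2.27e-08). Fabp5, the epidermal fatty acid-binding protein, was called higher as well (1.42, adjusted p = 0.0219), while Smad7 (0.36, adjusted p = 0.343), Smim13 (-0.09, adjusted p = 0.709) and Dcbld1 (0.67, adjusted p = 0.0335) were not called.

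The fitted changes of the members were compared over other treatments of the data, as the plot of fold changes shows. Fgfr3, Fgfbp1 and Fgf10 were called in every alternative that gave them a value, and Fgf10 had none under the filter of the methods, which leaves it out. The log2 fold change of Fgfr3 ranged from 3.64 to 4.97 and that of Fgf10 from -4.82 to -1.82. Scaling the libraries by their totals alone moved the median of all genes to 0.31, and scaling them to the luminal epithelial markers moved it to -0.38. Under either scaling Fgfr1, Fgfr2, Fgfr3 and Fgfbp1 were called higher and Fgf10 lower.

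**Figure D3:**
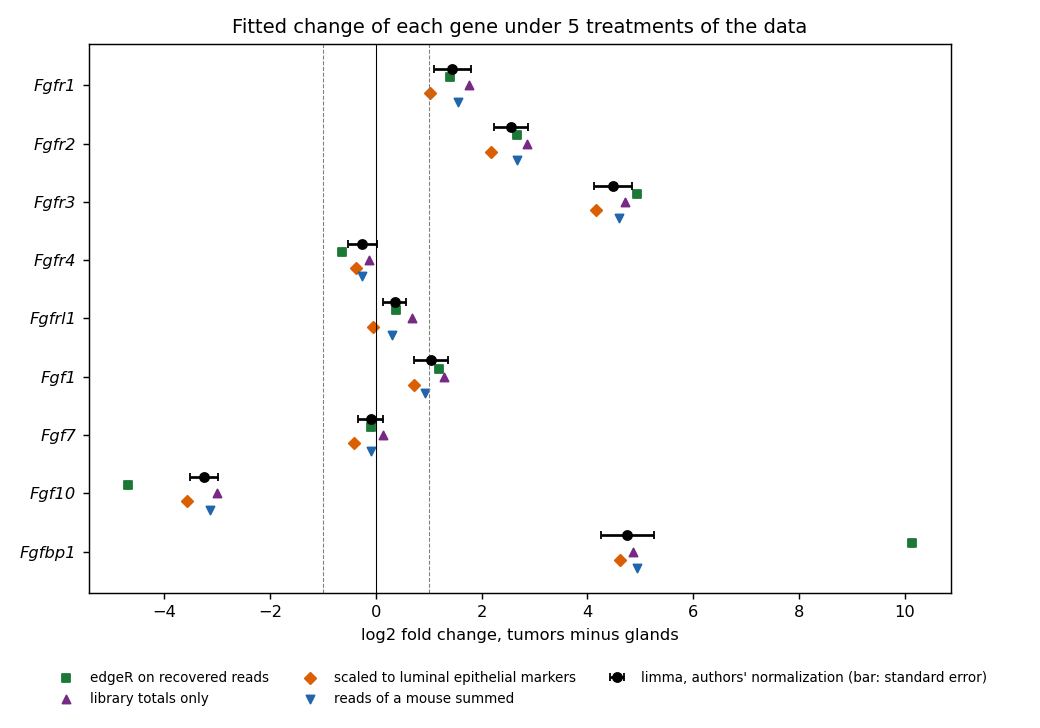
Log2 fold change, tumors minus glands (horizontal axis), of each member under 5 treatments of the data; bars are standard errors of the limma fit, dashed lines mark the limit of 2-fold. Fgfr1, Fgfr2, Fgfr3, Fgf10 and Fgfbp1 keep their side of 0 and lie beyond the limit in all 5, and the edgeR value of Fgfbp1 lies apart because the glands hold 1 read.

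Ranked by level per kilobase of exon, the tumors had Fgfr1 (20.7 ± 7.26 normalized cpm per kb, SD) and Fgfrl1 (20.3 ± 4.92) at the top, then Fgfbp1 (15.4 ± 15.5), Fgfr3 (12.0 ± 5.52), Fgfr2 (7.02 ± 2.53), Fgf1 (1.49 ± 0.563), Fgf7 (0.673 ± 0.248), Fgfr4 (0.232 ± 0.130) and Fgf10 (0.0802 ± 0.122). The neighbours Fgfr1 and Fgfrl1 were in this order in only 5 of 10 tumors, and Fgfbp1 and Fgfr3 in 6 of 10, so that these pairs did not differ beyond their spread. From Fgfr3 to Fgf10, each gene was above the next in all 10 tumors. In the glands, Fgfrl1 (15.6 ± 3.20) led Fgfr1 (7.92 ± 3.92) and Fgf10 (2.47 ± 0.141) in all 3 libraries, and Fgfr2 (1.10 ± 0.438), Fgf7 (0.723 ± 0.156), Fgf1 (0.652 ± 0.398), Fgfr3 (0.38 ± 0.173) and Fgfr4 (0.357 ± 0.255) followed without a fixed order, ahead of Fgfbp1 (0.0180 ± 0.0311). In this order Fgf10 was the third member in the glands and the last of 9 in the tumors. Among the 14783 genes with a length, Fgfr3 stood at percentile 8.99 in the glands and at percentile 73.1 in the tumors.

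The members differed among the tumors. Tumor 7 was the highest tumor for Fgfr1, Fgfr3 and Fgfbp1 and the lowest for Fgfrl1 and Fgf1, whereas tumor 9 was the highest for Fgfrl1 and Fgf1 and the lowest for Fgfr1. Tumors 1 and 2 had the lowest Fgfr2 and Fgfr3 levels. For Fgfbp1, tumors 8, 9 and 10 of 1 mouse ranged from 10.8 to 43.9 normalized cpm, a range of 1.93 on the log2 scale against 3.49 over all tumors, and for Fgfr1 they ranged from 119 to 270, or 1.17 against 1.48. For Fgf1 the same 3 tumors were within 0.48 on the log2 scale, against 1.55 over all tumors. Tumor 9 was also the library with the largest share of reads on the ribosomal RNA gene Rn45s, 27.4%, where the lowest tumor had 0.456%.

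Other genes of the FGF pathway were taken from 5 lists by function. Of 100 genes on the lists, 77 were listed, of which 15 (19.5%) were called higher and 7 (9.09%) lower, against 10.5% and 10.1% of all genes, with a median log2 fold change of -0.01. Scaling to the luminal epithelial markers gave 8 higher and 18 lower, and leaving out gland 3 gave 11 higher and 15 lower, so that the balance of the 2 directions rested on the scaling and on 1 gland. Of 18 other FGF ligand genes, 2 were listed and neither was called. These were Fgf11 (1.95 ± 0.861 normalized cpm in the tumors, 0.845 ± 0.273 in the glands, adjusted p = 0.081) and Fgf13 (3.44 ± 1.27 and 6.74 ± 1.64, adjusted p = 0.0222, log2 fold change -0.83), which encode intracellular members of the family that are not secreted. Of 22 adaptors and effectors, which carry the signal from the receptor inward, 1 was called higher and 0 lower. Over all genes, 10.5% were called higher and 10.1% lower. The gene called was Pik3r1, a regulatory subunit of phosphoinositide kinase, at 498 ± 84.1 normalized cpm in the tumors and 236 ± 99.8 in the glands (log2 fold change 1.16 ± 0.26 SE, adjusted p = 0.00331). Frs2, the adaptor docked to the receptors, was at 37.6 ± 7.82 and 32.3 ± 5.64 and was not called.

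Among 18 listed co-receptors and binding proteins, 5 were called higher and 4 lower, or 27.8% and 22.2%, against 10.5% and 10.1% of all genes. The largest rises were those of Flrt3, a membrane protein that binds FGF receptors (66.9 ± 29.8 against 7.90 ± 2.33 normalized cpm, log2 fold change 2.84), of Sdc1, the main heparan sulfate proteoglycan of epithelia (208 ± 97.6 against 28.5 ± 5.61, 2.74), and of Flrt1 (6.0 ± 3.58 against 0.28 ± 0.219, 2.30). All 10 tumors were above all glands for these 3 genes. The largest falls were those of Lctl, a klotho family member (0.282 ± 0.355 against 14.4 ± 5.65, -3.56), of Klb, the co-receptor of endocrine FGFs in fat and liver (0.290 ± 0.218 against 8.84 ± 2.25, -2.92), and of the glypican Gpc3 (1.53 ± 1.43 against 7.0 ± 1.71, -1.83). All 10 tumors were below all glands for them, and the adipocyte markers were lower in the same tumors, as given above.

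Of 18 listed enzymes that build or trim heparan sulfate, 3 (16.7%) were called higher and 1 (5.56%) lower, against 10.5% and 10.1% of all genes. The sulfotransferases Hs6st2 (8.72 ± 2.50 against 2.55 ± 0.690 normalized cpm, log2 fold change 1.42) and Hs3st6 (2.75 ± 1.12 against 0.566 ± 0.0773, 1.21) and the sulfatase Sulf2, which removes sulfate groups at the cell surface (106 ± 32.0 against 50.6 ± 22.5, 1.11), were higher, with all 10 tumors above all glands. The sulfotransferase Hs3st3b1 was lower (18.2 ± 8.32 against 43.5 ± 13.9, -1.26), with 9 of 10 tumors below all glands.

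Of 17 listed feedback inhibitors and target genes of FGF signaling, 6 (35.3%) were called higher, against 10.5% of all genes. Another 2 (11.8%) were called lower, and this share is near the 10.1% of all genes. The transcription factors Fos (59.1 ± 16.7 against 6.56 ± 3.78 normalized cpm, log2 fold change 3.06) and Etv4 (19.2 ± 11.8 against 2.63 ± 1.13, 2.39) and the inhibitor of Ras signaling Spred1 (55.2 ± 11.8 against 21 ± 0.554, 1.33) were higher, with all 10 tumors above all glands. The MAP kinase phosphatase Dusp4 (26.6 ± 12.8 against 102 ± 56.8, -1.87) and the Sprouty inhibitor Spry4 (3.27 ± 1.64 against 9.26 ± 4.64, -1.22) were lower. These genes also respond to other growth factors.

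**Figure D4:**
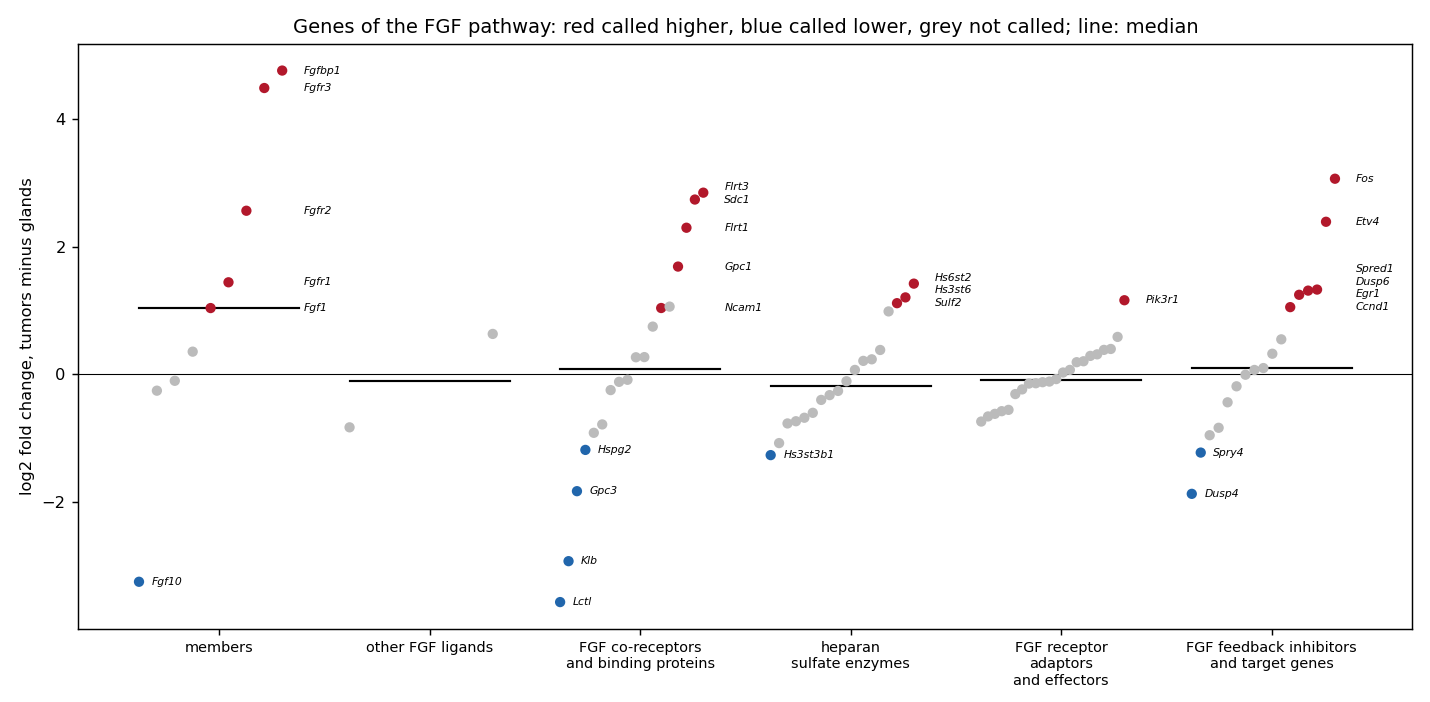
Log2 fold change, tumors minus glands (vertical axis), of the 9 members and of the 77 listed genes of the 5 pathway lists; each point is a gene, red called higher, blue called lower, grey not called, and the line is the median of its list. The median of the members is 1.04, while those of the 5 lists lie between -0.18 and 0.10.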

How the data were processed

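Total RNA of 10 tumors and 3 glands was sequenced, and the authors mapped 75-base paired-end reads to mm10 with Rsubread and counted them with featureCounts. The deposited table holds signal values, in which the authors had divided each read count by a scaled library size, as edgeR does. In every library, 100% of values were whole multiples of 1 read at a tolerance of 0.01, so reads were recovered. Groups came from the labels, which name 2 sequencing sites without assigning libraries, so no batch could be defined. Tumors of a mouse were taken as separate samples in the main fit.

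Tumors and glands were compared with limma 3.58.1 (R 4.3.3) with a variance trend on log2(normalized cpm + 1), condition as the only term and Benjamini-Hochberg adjustment over 15213 genes. The main fit had no filter, because the filter of the methods (it leaves out genes that do not exceed 5 in most libraries) drops genes high in the glands only. Alternatives were other pseudocounts, filters and scalings, edgeR 4.0.16 and DESeq2 1.42.0 on recovered reads, summed or correlated tumors of a mouse, and leaving out libraries. The scripts were tested on simulated data. Coordinates are those of RefSeq on GRCm38.p6, joined by Entrez ID. Exon lengths are those of the GENCODE annotation of GRCm38, joined by gene symbol. Every member is named, and in each pathway list the 3 largest rises and the 3 largest falls among called genes, the 5 genes most like the member with the largest change, and Tsg101. Frs2 and the ligands Fgf11 and Fgf13 were named in addition. The members, lists and tests were chosen with earlier results of these data known. Intervals and floors (3 reads) cover counting error only.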

Additional observations from a re-analysis of the deposited data

Results flagged for a closer look

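Among the 9 members, the highest tumor lay far from the other tumors for 2 genes by Dixon's criterion for 10 samples. The criterion was taken on normalized cpm with no logarithm, and the flags hold for that scale only. Chance meets it in about 1 of 20 groups of normally distributed values. Fgf10 in tumor 4 was at 1.92 normalized cpm, and the other tumors reached at most 0.419. Fgfbp1 in tumor 7 was at 132 normalized cpm, and the next tumor was at 43.9. Without either tumor both genes were still called in the same direction.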

How the results depend on the processing

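Over 28 alternatives, the count of members called higher was 2 to 5 and leaving out a library or mouse gave 3 to 5, where 3 was reached without gland 3, which ended the calls of Fgfr1 and Fgf1. The count of members called lower was 1 except under the filter of the methods, where it was 0 because Fgf10 is left out. That filter gave 825 genes lower over all genes and 3 lower on the pathway lists. A pseudocount of 4 gave 1020 genes higher. Scaling to the luminal epithelial markers gave 1007 genes higher and 2679 lower, and 8 pathway genes higher and 18 lower. Library totals alone gave 4 pathway genes lower, and edgeR and DESeq2 each gave 11. Leaving out a library or mouse gave 5 to 15 pathway genes lower, the highest without gland 3. The sign turned for Fgf7 with library totals alone (0.13) and without gland 1 (0.0093, where leaving out a library or mouse gave -0.22 to 0.0093), and for Fgfrl1 with the epithelial scaling (-0.058), and none of these was called. Relative to marker lists, chosen after the data were seen, the sign turned for Fgfr1 against basal markers (-0.33), for Fgf7 against fibroblast (1.37) and adipocyte markers (5.38) and for Fgf10 against adipocyte markers (2.24), where most tumors are at the floor of Fgf10 and the added 1 limits its fall, so that no direction can be read. The cause was not tested.

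Tumors and glands share replicate numbers that do not pair them: same-numbered deviations correlated at -0.58, 0.04 and -0.66 over 11795 genes. A fit with the replicate block gave 547 genes higher and 564 lower, 2 members higher, and 5 pathway genes higher and 3 lower, with 3 tumors left to be compared with the 3 glands. Apart from tumor 4, the tumors held at most 4 reads of Fgf10 each, and differences among those tumors were not detectable at this depth, and Fgfr4 rested on 3 to 34 reads in the tumors.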
